A study of Mus musculus with 6 samples.

Results

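The unfolded protein response (UPR) genes described here are the 3 sensors of stress in the endoplasmic reticulum (*Ern1*, *Eif2ak3* and *Atf6*), the *Atf6* paralog *Atf6b*, the transcription factors *Xbp1*, *Creb3l3* and *Ddit3*, and *Ppp1r15a* and *Ppp1r15b*, which encode subunits of the phosphatase that reverses the PERK signal. They were chosen by name, with earlier results of these livers known but by no rule on their measured values. They are 9 of the 54115 genes to which the quantified transcripts belong. All 9 had enough reads to be tested. RNA of whole livers was sequenced from 3 WT and 3 *Sirt7* KO mice, all males of 24 months. Livers of both genotypes were taken after 16 h of fasting, so no fed liver enters the comparison. *Sirt7* encodes a nuclear sirtuin deacylase, the KO is inherited and so present in every tissue, the line was backcrossed to C57BL/6J, and the methods of the study obtain both genotypes as littermates of heterozygous parents. Each library came from 1 mouse.

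When unfolded proteins collect in the endoplasmic reticulum, the membrane proteins IRE1α (encoded by *Ern1*), PERK (*Eif2ak3*) and ATF6 each start one arm of the response. IRE1α cuts an intron out of the *Xbp1* mRNA, PERK phosphorylates eIF2α, which slows translation while it favors ATF4, and ATF6 is carried to the Golgi apparatus, where proteases release its transcription factor part. Liver cells secrete large amounts of plasma protein and express in addition CREBH (*Creb3l3*), a membrane-bound factor of the same kind as ATF6 with known roles in lipid metabolism and fasting. Much of this regulation acts on proteins and on RNA processing, which gene-level read counts do not measure.

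The *Xbp1* mRNA carries the sequence on which the IRE1 arm acts. The cut segment lies at chr11:5524279-5524304 on the plus strand (GRCm38), in exon 4 of 5 of *Xbp1*-201, and is shown because its presence or absence decides which XBP1 protein is made. In the sequence of this isoform from GENCODE M21 (5′ to 3′), the 26 bases in capitals are those removed by IRE1, with 20 bases on each side.
*Xbp1* before splicing: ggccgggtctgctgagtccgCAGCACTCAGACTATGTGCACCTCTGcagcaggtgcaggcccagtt
*Xbp1* joined: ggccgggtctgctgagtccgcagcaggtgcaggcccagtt
Because 26 is not a multiple of the codon length, the cut changes the reading frame. Read from the same start codon, *Xbp1*-201 encodes 267 amino acids before and 371 after the cut, and the longer protein is the active factor XBP1s. None of the quantified transcripts held the joined sequence (0 transcripts), and all 3 protein-coding *Xbp1* isoforms, 201, 203 and 204, hold the 26 bases. The share of spliced *Xbp1* therefore cannot be given from these files, and every *Xbp1* value below counts spliced and unspliced mRNA together.

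The libraries held 9994860 to 13424776 reads on transcripts, and 12524 genes were tested between the genotypes. *Sirt7* reads were lower in every KO liver, at 55.2, 45.5 and 47.3 normalized CPM (reads scaled to library size with TMM factors) in WT and 28.6, 41.7 and 40.8 CPM in *Sirt7* KO mice. Its full-length protein-coding isoform *Sirt7*-201 had 429, 381 and 408 estimated reads in WT mice against 124, 135 and 77.5 in KO mice. Short coding isoforms went the other way, with 2.12, 5.12 and 0 reads of *Sirt7*-202 in WT and 50.5, 54.1 and 93.3 in KO mice, and with 43.0, 0 and 65.3 reads of *Sirt7*-207 in WT and 83.5, 119 and 192 in KO mice. Per length, *Sirt7* was thus higher in every KO liver (34.7, 49.9 and 68.0 TPM against 34.4, 28.3 and 27.3 TPM in WT), and the gene was not absent from the KO libraries by reads. The sources used here do not give which exons the KO allele lacks, and the reads of these 3 isoforms did not overlap between the labelled genotypes. The 6 hepatocyte markers summed to 41201 to 51618 CPM, and none of them was at 0. Marker sums of other cell types overlapped between the genotypes: 26.7 to 65.0 CPM in WT and 25.5 to 80.5 CPM in KO mice for the 6 plasma cell and B cell markers, 46.9 to 143 and 47.6 to 132 CPM for the 6 Kupffer cell markers, 159.6 to 202 and 125 to 201 CPM for the 5 stellate cell markers, 47.3 to 72.7 and 53.4 to 71.0 CPM for the 5 cholangiocyte markers, and 56.2 to 71.1 and 61.8 to 90.8 CPM for the 5 endothelial markers. Markers of neutrophils, T cells and pancreatic acinar cells summed to at most 6.14, 5.0 and 1.45 CPM, and *Ly6g*, *Prss2* and *Pnlip* were at 0 in all livers. In these bulk samples, fewer cells of a type and less RNA per cell cannot be told apart.

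In CPM, the 2 genes for the sensors IRE1α and ATF6 were higher in all 3 *Sirt7* KO livers than in any WT liver, and the other 7 genes overlapped between the genotypes. None of the 9 passed the test across all genes, which required an adjusted p under 0.05 and a fold change over 1.5 in edgeR's quasi-likelihood test with Benjamini-Hochberg adjustment. This rule called 0.00798% of all tested genes (1 gene). At an unadjusted p under 0.05, 2 of the 9 differed, both higher in KO mice, where 11.3% of all tested genes reached this level and 6.54% were higher. Groups without overlap were found for 16.8% of all tested genes, 8.74% with KO above WT and 8.09% with KO below WT. Of the 9 log2 fold changes, 5 were above 0, as were 49.3% of those of all tested genes, and their median was 0.07 beside -0.01 for all tested genes. DESeq2 also called 0 of the 9, where it called 2.11% of the genes it tested, or 1.81% with transcript length offsets, and so did the other alternatives, 16 in all. For single genes, an exact permutation test of 3 against 3 livers cannot go below p = 0.1.

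**Figure D1:**
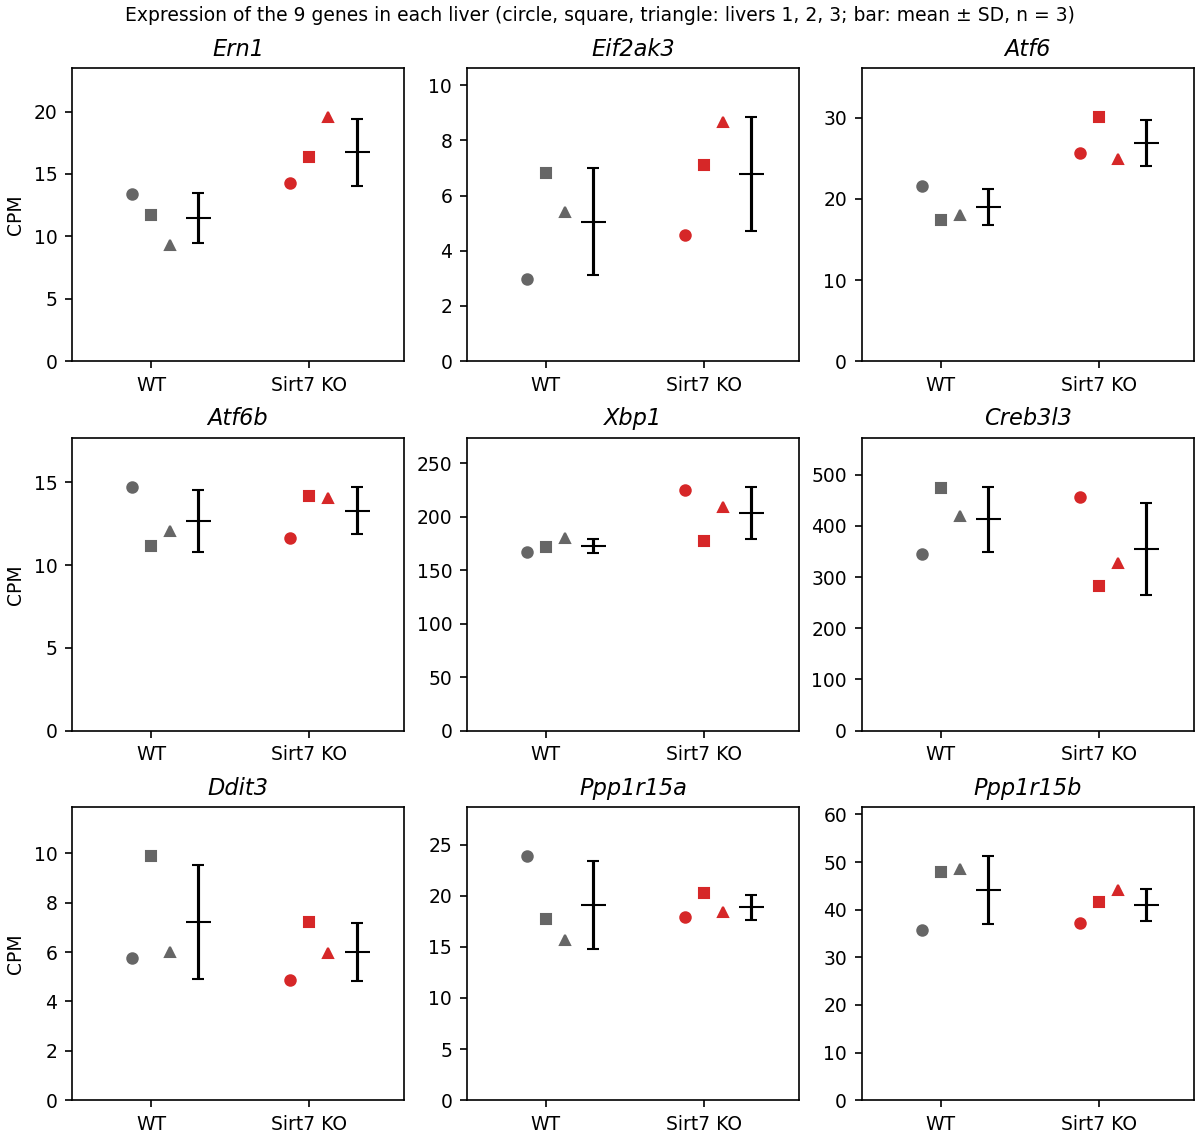
Normalized reads of the 9 genes (CPM, linear axes starting at 0), with 1 point per liver, its shape marking the mouse number, and the mean and SD of each genotype (n = 3). The WT and *Sirt7* KO points are apart for *Ern1* and *Atf6*, and overlap for the other 7 genes.

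*Ern1* (chr11:106394650-106487852, minus strand) encodes IRE1α, the kinase and endoribonuclease that cuts *Xbp1*. It had 13.4, 11.7 and 9.32 CPM in WT mice and 14.3, 16.3 and 19.6 CPM in *Sirt7* KO mice, from 126 to 203 reads per liver. Every KO liver was above every WT liver, by the narrowest margin between KO mouse 1 and WT mouse 1. The means were 11.5 ± 2.04 and 16.7 ± 2.66 CPM (SD, n = 3 each). The log2 fold change was 0.54 ± 0.21 (SE, 95% interval 0.07 to 1.02), a fold of 1.46, with an edgeR adjusted p of 0.36. This difference depended on how transcript length entered. In TPM, a level per transcript length, *Ern1* had 3.08, 1.94 and 2.33 in WT and 2.34, 2.59 and 3.75 in KO mice, and the groups overlapped. Of the TPM of WT mouse 1, 1.34 came from 7.24 estimated reads of a 660-base isoform. The main isoform *Ern1*-201 alone had 1.69, 1.34 and 0.996 TPM in WT and 1.61, 1.82 and 2.30 TPM in KO mice, which also overlapped. With average transcript length as an offset, its log2 fold change was 0.29 in edgeR (adjusted p = 0.73) and 0.31 in DESeq2 (adjusted p = 0.87), and over all alternatives its adjusted p was between 0.17 and 0.87.

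*Atf6* (chr1:170704674-170867771, minus strand) encodes the sensor that is itself a precursor of a transcription factor. Its reads came to 21.6, 17.4 and 18.0 CPM in WT mice and 25.6, 30.1 and 24.9 CPM in *Sirt7* KO mice. All KO livers were above all WT livers. The means were 19.0 ± 2.25 and 26.9 ± 2.79 CPM (SD, n = 3 each), a log2 fold change of 0.50 ± 0.16 (SE, 95% interval 0.14 to 0.86) and a fold of 1.41, with an edgeR adjusted p of 0.28. The same order was seen per length, at 2.87, 1.98 and 2.13 TPM in WT and 2.90, 3.55 and 2.98 TPM in KO mice, although WT mouse 1 and KO mouse 1 were close. Its log2 fold change lay between 0.38 and 0.59 in all alternative fits, and its adjusted p between 0.16 and 0.67. The exact two-sided permutation test gave p = 0.1 for *Ern1* and for *Atf6*, the smallest value it can give.

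The third sensor gene, *Eif2ak3* (chr6:70844515-70905245, plus strand), encodes PERK, the eIF2α kinase of the endoplasmic reticulum. It was the least abundant of the 9, with 35, 75 and 73 reads in WT and 50, 67 and 90 reads in *Sirt7* KO mice. These are 2.96, 6.80 and 5.40 CPM in WT and 4.58, 7.10 and 8.67 CPM in KO mice. KO mice 2 and 3 were above all WT mice and KO mouse 1 was within the WT range. Its log2 fold change of 0.42 ± 0.37 (SE) had a 95% interval from -0.40 to 1.25 (edgeR adjusted p = 0.72), so that a 2.38-fold higher and a 0.755-fold level were both within the interval. The log2 fold change was 0.15 without WT mouse 1, 0.69 without WT mouse 2, 0.64 without KO mouse 1 and 0.20 without KO mouse 3. *Gm43292*, on the opposite strand, shares 485 exon bases with *Eif2ak3* and had 0 to 4.2 reads, so some reads may be shared.

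*Atf6b* (chr17:34647146-34655074, plus strand), the paralog of *Atf6* and also a membrane-bound precursor, did not share the order seen for *Atf6*. It had 14.7, 11.2 and 12.1 CPM in WT mice and 11.6, 14.2 and 14.1 CPM in *Sirt7* KO mice, and all KO values lay within the WT range. The log2 fold change was 0.07 ± 0.19 (SE, 95% interval -0.36 to 0.51, edgeR adjusted p = 0.93). Its sign turned to -0.05 with total-count scaling and to -0.01 without WT mouse 2.

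*Xbp1* (chr11:5520659-5525893, plus strand) encodes the transcription factor of the IRE1 arm and is also a known target gene of ATF6 and XBP1. WT mice had 167, 171 and 179.7 CPM, a narrow range, and *Sirt7* KO mice had 225, 177 and 209 CPM. KO mice 1 and 3 were above all WT mice, while KO mouse 2 lay between WT mice 2 and 3. The means were 173 ± 6.46 and 204 ± 24.5 CPM (SD, n = 3 each), a log2 fold change of 0.24 ± 0.14 (SE, 95% interval -0.09 to 0.56) with edgeR adjusted p = 0.59. Its log2 fold change was 0.13 with total-count scaling, which lowers the median of all tested genes to -0.11.

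*Creb3l3* (chr10:81084324-81098874, minus strand) encodes CREBH. It had the most reads of the 9, at 345, 473 and 419 CPM in WT mice and 456, 282 and 327 CPM in *Sirt7* KO mice. KO mice 2 and 3 were below all WT mice, and KO mouse 1 was within the WT range. The means were 413 ± 64.2 and 355 ± 90.1 CPM (SD, n = 3 each), with a log2 fold change of -0.22 ± 0.21 (SE, 95% interval -0.69 to 0.26, edgeR adjusted p = 0.75). It was -0.44 without KO mouse 1 (edgeR adjusted p = 0.26), -0.08 without KO mouse 2, -0.34 without WT mouse 1 and -0.11 without WT mouse 2.

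*Ddit3* (chr10:127290774-127296288, plus strand) encodes CHOP, a transcription factor made downstream of PERK and ATF4 and linked to cell death under lasting stress. It was low in all livers, at 5.76, 9.89 and 5.99 CPM in WT and 4.85, 7.21 and 5.97 CPM in *Sirt7* KO mice (53 to 109 reads). The ranges overlapped, with only KO mouse 1 below all WT mice. The log2 fold change was -0.26 ± 0.29 (SE, 95% interval -0.93 to 0.41, edgeR adjusted p = 0.79), and it was 0.03 without WT mouse 2, the highest liver. *Mars*, on the opposite strand, shares 68 exon bases with *Ddit3* and had 703 to 921 reads, and the library kit does not mark strand, so some reads may be shared between them.

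*Ppp1r15a* (chr7:45522916-45526268, minus strand) encodes GADD34, the stress-induced subunit that brings protein phosphatase 1 to eIF2α. It had 23.9, 17.7 and 15.7 CPM in WT and 17.9, 20.2 and 18.4 CPM in *Sirt7* KO mice, with all KO livers inside the WT range. Its log2 fold change was -0.02 ± 0.19 (SE, 95% interval -0.45 to 0.41, edgeR adjusted p = 0.99), and it was 0.17 without WT mouse 1, the highest liver. *Ppp1r15b* (chr1:133131143-133139783, plus strand) encodes CReP, the constitutive subunit. It had 35.8, 47.9 and 48.5 CPM in WT and 37.3, 41.5 and 44.0 CPM in KO mice, again with all KO livers inside the WT range. Per length, *Ppp1r15b* had 7.90, 7.86 and 8.77 TPM in WT and 6.15, 7.68 and 7.30 TPM in KO mice. In TPM, every KO liver was thus below every WT liver. With length offsets, its log2 fold change was -0.17 in edgeR (adjusted p = 0.75) and -0.16 in DESeq2 (adjusted p = 0.93). The log2 fold change of *Ppp1r15b* was -0.11 ± 0.16 (SE, 95% interval -0.47 to 0.26, edgeR adjusted p = 0.85). Leaving out 1 liver moved it from -0.24 (without WT mouse 1) to -0.03 (without WT mouse 3), with -0.04 without WT mouse 2 or KO mouse 1 and -0.16 without KO mouse 3. *Gm26616*, on the opposite strand, shares 640 exon bases with *Ppp1r15b* and had 5.3 to 14.2 reads, so some reads may be shared here too.

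**Figure D2:**
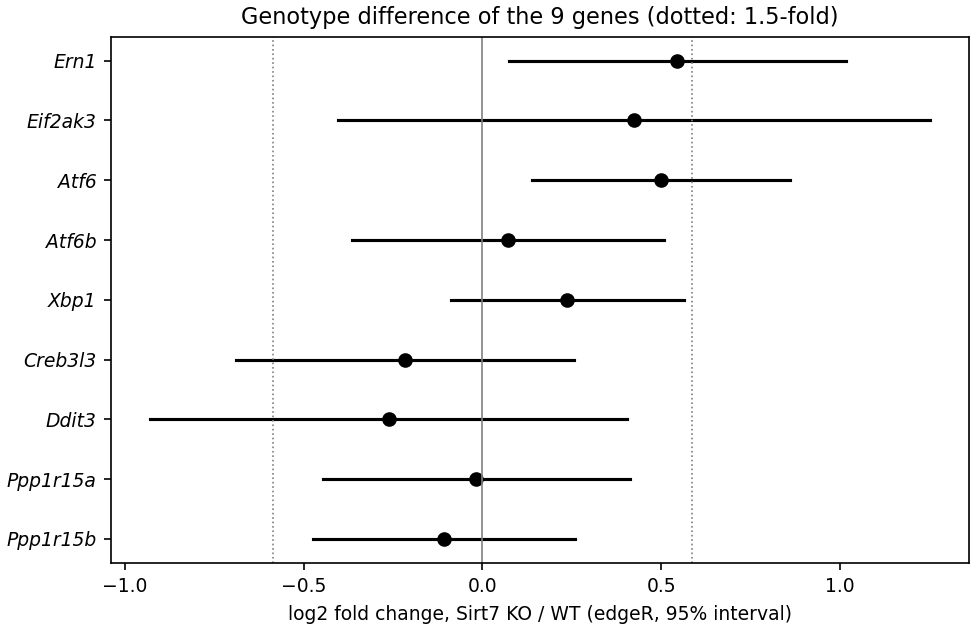
Log2 fold change (*Sirt7* KO over WT, edgeR) of each of the 9 genes, with its 95% interval (n = 3 mice per genotype). The intervals of *Ern1* (0.07 to 1.02) and *Atf6* (0.14 to 0.86) lie above 0 before adjustment over all genes, and the intervals of the other 7 genes include 0.

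Levels of different genes can be compared only per length, in TPM. *Creb3l3* was the highest of the 9, with 194 ± 20.5 TPM in WT and 158 ± 33.3 TPM in *Sirt7* KO mice (SD, n = 3 each), followed by *Xbp1* with 89.5 ± 7.02 and 99.0 ± 8.08 TPM. *Creb3l3* exceeded *Xbp1* in every liver, 2.16-fold in WT and 1.6-fold in KO mice by the means. *Xbp1* in turn was 9.58-fold and 12.9-fold above the next gene, *Ddit3*, with 9.34 ± 2.53 TPM in WT and 7.69 ± 1.62 TPM in KO mice. *Ppp1r15b* (8.18 ± 0.514 and 7.04 ± 0.796 TPM) and *Ppp1r15a* (7.75 ± 2.21 and 7.35 ± 0.675 TPM) followed. The ranges of *Ddit3* and *Ppp1r15b*, and those of *Ppp1r15b* and *Ppp1r15a*, overlapped in both genotypes, so their order was not settled. *Ppp1r15b* was above *Ppp1r15a* in 2 of 3 WT livers. In every KO liver it was below *Ppp1r15a* (6.15, 7.68 and 7.30 against 6.68, 8.03 and 7.36 TPM). *Atf6b* had 5.37 ± 1.58 TPM in WT and 5.31 ± 0.200 TPM in KO mice, and its range overlapped that of *Ppp1r15a* in WT mice only. The sensor genes were at the end of the order. *Atf6* (2.33 ± 0.474 and 3.14 ± 0.358 TPM) was below *Atf6b* in all livers, *Ern1* (2.45 ± 0.581 and 2.89 ± 0.753 TPM) overlapped with *Atf6*, and *Eif2ak3* (1.15 ± 0.479 and 1.41 ± 0.527 TPM) was below *Ern1* in all livers.

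The 9 genes have 33 isoforms among the quantified transcripts, of which 16 had a mean of at least 10 estimated reads and 5 had no read in any liver. Isoform values are estimates of Salmon, which divides reads that match several isoforms among them. Across 23795 transcripts tested in edgeR, 0 were called (0.0%), and none of the 16 isoforms was among them. At an unadjusted p under 0.05, 1 of the 16 differed (5.38% of all tested transcripts), namely *Atf6*-201, with a log2 fold change of 0.50 ± 0.17 (SE, edgeR adjusted p = 0.84). DESeq2 called 0 of the 16 as well. *Atf6*-201 held at least 98.8% of the *Atf6* reads in each liver, so this is the gene's difference over again.

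*Xbp1*-201 carried most reads of *Xbp1*, 1758, 1729 and 2169.7 in WT and 2314, 1503 and 1979 in *Sirt7* KO mice. It made up 89.1, 91.6 and 89.3% of the gene in WT mice and 94.2, 90.1 and 91.2% in KO mice, and the shares overlapped (exact permutation p = 0.3). The shorter protein-coding isoforms hold the same 26 bases. *Xbp1*-204 had 92.2, 22 and 122 reads in WT and 41.8, 57.9 and 63.5 reads in KO mice, and *Xbp1*-203 had 42.1 to 65.4 reads in all livers. *Xbp1*-202, a transcript with a retained intron that ends before the 26 bases, had 75.2, 71.5 and 87.9 reads in WT and 55.2, 65.8 and 74.7 reads in KO mice. It made up 3.62 to 3.81% of the gene in WT and 2.25 to 3.94% in KO mice, and these shares overlapped too. None of the 4 isoforms had shares that separated the genotypes.

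A single isoform also held most reads of 5 other genes. *Creb3l3*-201 made up 94.2 to 96.3% of its gene, *Ddit3*-201 92.1 to 98.4%, *Ern1*-201 86.7 to 97.3%, *Eif2ak3*-201 at least 87.1% and *Ppp1r15a*-201 at least 98.4% in each liver. The remainder of *Creb3l3* was mostly in *Creb3l3*-203 and *Creb3l3*-204, both with retained introns, at 2.62 to 3.98% and 0.790 to 1.98%. The isoforms of *Atf6b* and *Ppp1r15b* varied within each genotype. *Atf6b*-202 took an estimated 49.6, 63.9 and 0% of its gene in WT livers against 0, 50.8 and 63.3% in KO livers, with nearly all other reads in *Atf6b*-201. WT mouse 3 and KO mouse 1 thus had no read assigned to this isoform. *Ppp1r15b*-202, a transcript annotated without a coding sequence, made up 56.1, 18.8 and 30.6% in WT and 24.6, 35.1 and 11% in KO mice, and the coding *Ppp1r15b*-201 the rest. Neither gene had shares that separated the genotypes.

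**Figure D3:**
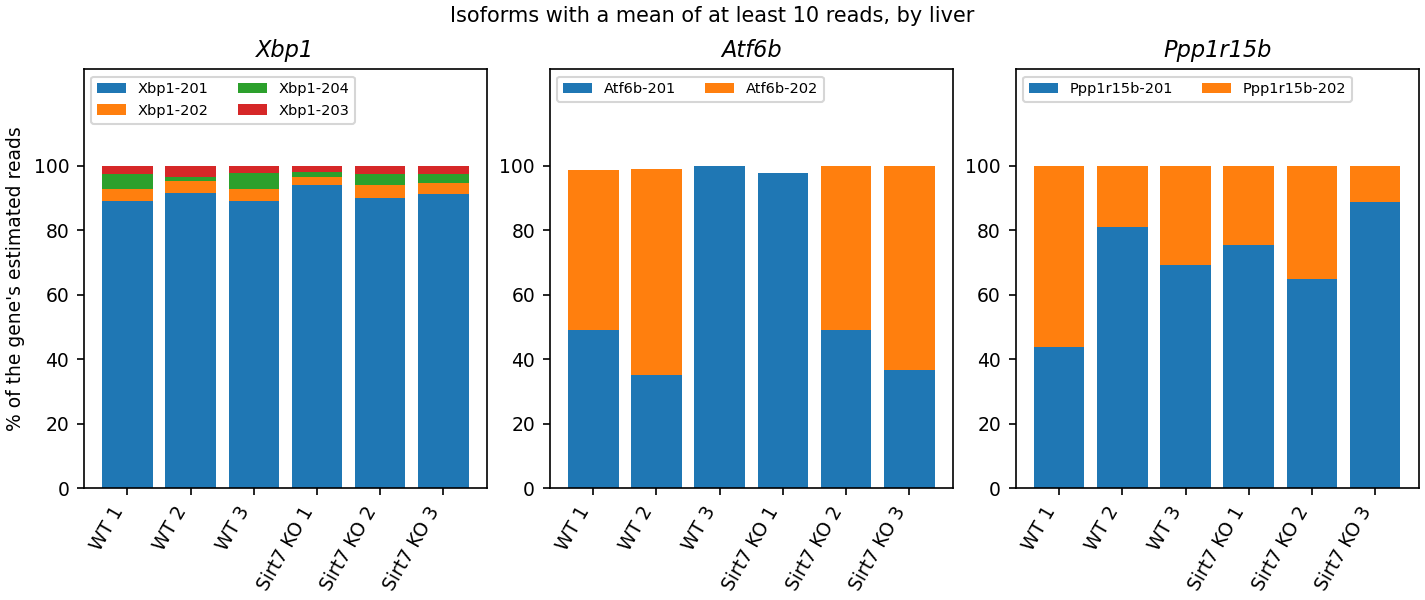
Stacked shares (percent) of the estimated reads of *Xbp1*, *Atf6b* and *Ppp1r15b* given to their isoforms with a mean of at least 10 reads, 1 bar for each of the 6 livers. *Xbp1*-201 holds 89.1 to 94.2% in all livers, whereas *Atf6b*-202 is at 0% in WT mouse 3 and *Sirt7* KO mouse 1.

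The known target genes of each arm were counted next to the sensors. Of 16 targets of IRE1 and XBP1, 15 were tested and 13 had a log2 fold change above 0. The median was 0.44, and 9 were higher in *Sirt7* KO mice at an unadjusted p under 0.05, with none lower (0 genes). For 9 of the 15, every KO liver was above every WT liver, as for 8.74% of all tested genes. The highest fold change was that of *Spcs3*, a subunit of the signal peptidase, with 23.5, 27.4 and 28.8 CPM in WT and 47.0, 48.1 and 46.2 CPM in KO mice (log2 fold change 0.83 ± 0.14 SE, edgeR adjusted p = 0.10). The lowest was that of *Srprb*, a subunit of the signal recognition particle receptor, at -0.04 ± 0.15 (edgeR adjusted p = 0.95). *Dnajb9*, which encodes the co-chaperone ERdj4 and is often used as a readout of XBP1s, did not have this order. It had 27.7, 23.0 and 29.1 CPM in WT and 49.0, 13.5 and 16.9 CPM in KO mice, so that KO mouse 1 was above and KO mice 2 and 3 were below all WT mice. The number higher at an unadjusted p under 0.05 was 4 with total-count scaling and 6 to 8 when 1 liver was left out, and 1 was lower without KO mouse 1.

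Of 12 targets of ATF6, 11 were tested and 10 had a log2 fold change above 0, with a median of 0.77. At an unadjusted p under 0.05, 7 were higher in *Sirt7* KO mice and none was lower (0 genes), and for 6 every KO liver was above every WT liver, as for 8.74% of all tested genes. *Hspa5*, which encodes the chaperone BiP that binds all the sensors, had 490.4, 426 and 350.0 CPM in WT and 895, 632 and 636 CPM in KO mice (log2 fold change 0.77 ± 0.20 SE, edgeR adjusted p = 0.20). The highest was *Sdf2l1*, a partner of ER chaperones, with 19.3, 5.26 and 5.99 CPM in WT and 37.4, 25.7 and 34.9 CPM in KO mice (log2 fold change 1.68 ± 0.45 SE, edgeR adjusted p = 0.21). *Herpud1*, a component of ER-associated degradation, went the other way, at 428, 389 and 504 CPM in WT and 329, 287 and 432 CPM in KO mice (-0.33 ± 0.19 SE, edgeR adjusted p = 0.57). Leaving out 1 liver gave 6 to 8 genes higher at an unadjusted p under 0.05, and 1 was lower without KO mouse 3. The median was 0.58 without KO mouse 1, and 0.66 both without WT mouse 3 and with total-count scaling. The summed level of the list was 1646 to 1819 CPM in WT and 2142 to 2624 CPM in KO mice.

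Of 18 targets of PERK and ATF4, 11 were tested, 8 had a log2 fold change above 0, and the median was 0.16 (0.07 without WT mouse 2, 0.28 without KO mouse 3, 0.25 without WT mouse 1 and 0.24 without WT mouse 3). At an unadjusted p under 0.05, 3 were higher and 1 was lower. *Atf4* itself had 41.7, 32.7 and 31.3 CPM in WT and 32.7, 41.7 and 40.4 CPM in *Sirt7* KO mice, with a log2 fold change of 0.12 ± 0.17 (SE, edgeR adjusted p = 0.84), and the groups overlapped. The highest was *Asns*, the asparagine synthetase, with 0.847, 6.99 and 1.04 CPM in WT and 7.88, 30.1 and 47.3 CPM in KO mice (3.29 ± 0.83 SE, edgeR adjusted p = 0.20). *Vldlr*, a lipoprotein receptor, was the lowest, at -1.91 ± 0.67 (edgeR adjusted p = 0.33). Without KO mouse 3, 1 was higher and 0 were lower at an unadjusted p under 0.05, and without WT mouse 1 also 0 were lower.

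Of the genes that CREBH is known to activate, all 8 were tested, 6 had a log2 fold change below 0, and the median was -0.62. The median was -0.98 without KO mouse 1, -0.31 without KO mouse 2 and -0.28 without KO mouse 3. At an unadjusted p under 0.05, 2 were lower in *Sirt7* KO mice and none was higher (0 genes), and the number lower was 5 without KO mouse 1 and 1 without KO mouse 2, without KO mouse 3 or without WT mouse 1. The number higher was 2 without WT mouse 1 or without the filter on low counts, and 1 without KO mouse 3, with DESeq2 or with the replicate block. The lowest was *Hamp*, the iron hormone hepcidin, with 1527, 177 and 473 CPM in WT and 303, 23.5 and 76.4 CPM in KO mice (-2.43 ± 0.95 SE, edgeR adjusted p = 0.37). The highest was *Apcs*, the serum amyloid P component, at 0.54 ± 0.34 (edgeR adjusted p = 0.60). *Creb3l3* is itself induced by fasting, so fasting genes controlled by PPARα were measured beside it. Their summed level was 13268, 21374 and 16568 CPM in WT and 13227, 6011 and 6449 CPM in KO mice. KO mice 2 and 3, the lowest in this sum, were also the lowest in *Creb3l3*. KO mouse 1 was just below the lowest WT liver in the sum (13227 against 13268 CPM), but within the WT range in *Creb3l3*. Of these 11 fasting genes, 2 had a log2 fold change above 0 and 6 were lower at an unadjusted p under 0.05 (median -0.86, from *Pdk4* at 0.34 to *Cyp4a14* at -2.69). The number lower was 8 without KO mouse 1 and 3 without KO mouse 2, without KO mouse 3 or without WT mouse 2. The part of the fasting state in the *Creb3l3* values was not tested.

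**Figure D4:**
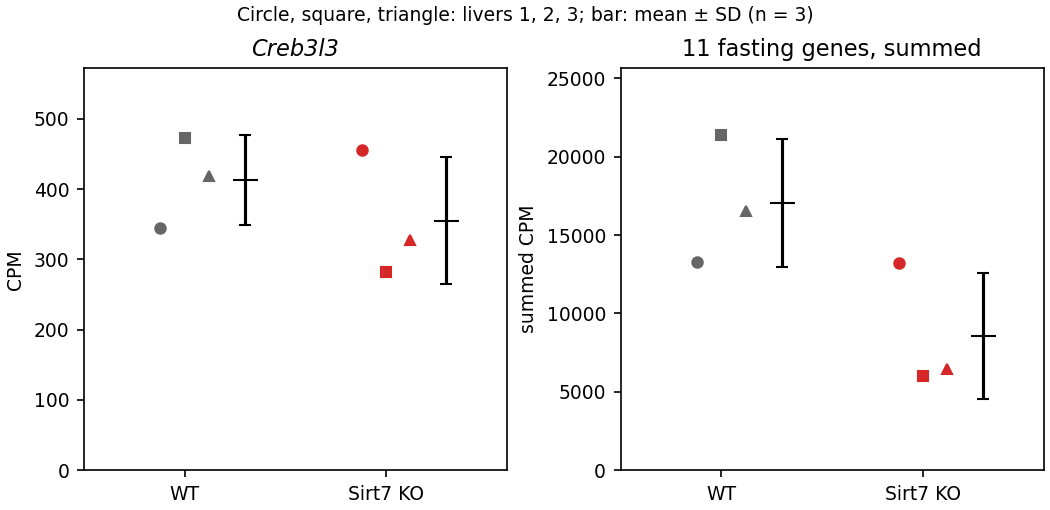
Normalized reads of *Creb3l3* (CPM, left panel) and the summed CPM of 11 fasting genes of PPARα (right panel), 1 point per liver with the shape marking the mouse number, and the mean and SD of each genotype (n = 3). *Sirt7* KO mice 2 and 3 are lowest in both panels (282 and 327 CPM of *Creb3l3*). KO mouse 1 lies among the WT mice in *Creb3l3* and just below the lowest WT mouse in the sum.

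The 7 RNAs known to be degraded directly by IRE1α were all tested, 3 had a log2 fold change above 0, none differed at an unadjusted p under 0.05 (0 genes), and their median was -0.01, with values from 0.36 for *Scara3* to -0.20 for *Hgsnat*. The machinery around the sensors came next. In the complex that joins the *Xbp1* exons, 5 of 5 genes were tested and 0 reached an unadjusted p under 0.05 (median 0.07, from 0.31 for the helicase gene *Ddx1* to -0.46 for *Fam98b*). The same was found for 4 tested genes of the ATF6 proteases and NF-Y partners (median 0.03, from 0.22 for *Nfyc* to -0.53 for *Nfyb*), for 12 genes of eIF2α kinases, phosphatase subunits and eIF2B (median 0.04, from 0.56 for the kinase gene *Eif2ak4* to -0.43 for *Eif2b3*), and for the 2 tested relatives of *Creb3l3* (*Creb3l2* at 0.36 and *Creb3* at -0.11). Among 7 tested immediate early genes, which can respond to handling of tissue, the median was -0.07, and 1 gene, *Jun*, was lower at an unadjusted p under 0.05 (-0.68 ± 0.25 SE, edgeR adjusted p = 0.34), while *Zfp36* was the highest at 0.24.

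No gene of these lists was called (0 genes) in edgeR with all 6 livers at the settings of the main test. Without the filter on low counts, edgeR called 2 targets of IRE1 and XBP1, 7 of ATF6, 4 of PERK and ATF4, 3 of CREBH and 6 fasting genes, out of 633 genes in all. With the replicate number as a block it called 2 CREBH targets, out of 41 genes. Without KO mouse 1 it called 1 target of IRE1 and XBP1, 2 of PERK and ATF4, 3 of CREBH and 4 fasting genes, and without WT mouse 1 it called 1 ATF6 target. Over all genes, the fit without the filter called 633 of 27881 tested, and that with the block 41 of 12524. Leaving out KO mouse 1 gave 252 of 12921, and leaving out WT mouse 1 gave 2 of 12944. DESeq2, which called 2.11% of all genes it tested, called 6 ATF6 targets, 2 targets of IRE1 and XBP1, 1 CREBH target and 1 fasting gene. With length offsets (1.81% of genes) it called 4, 1, 1 and 0. Shares of the whole table at an unadjusted p under 0.05 were 6.54% with the KO mice higher and 4.78% with them lower. These lists were made with earlier results of these livers known, and their counts are descriptions.

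**Figure D5:**
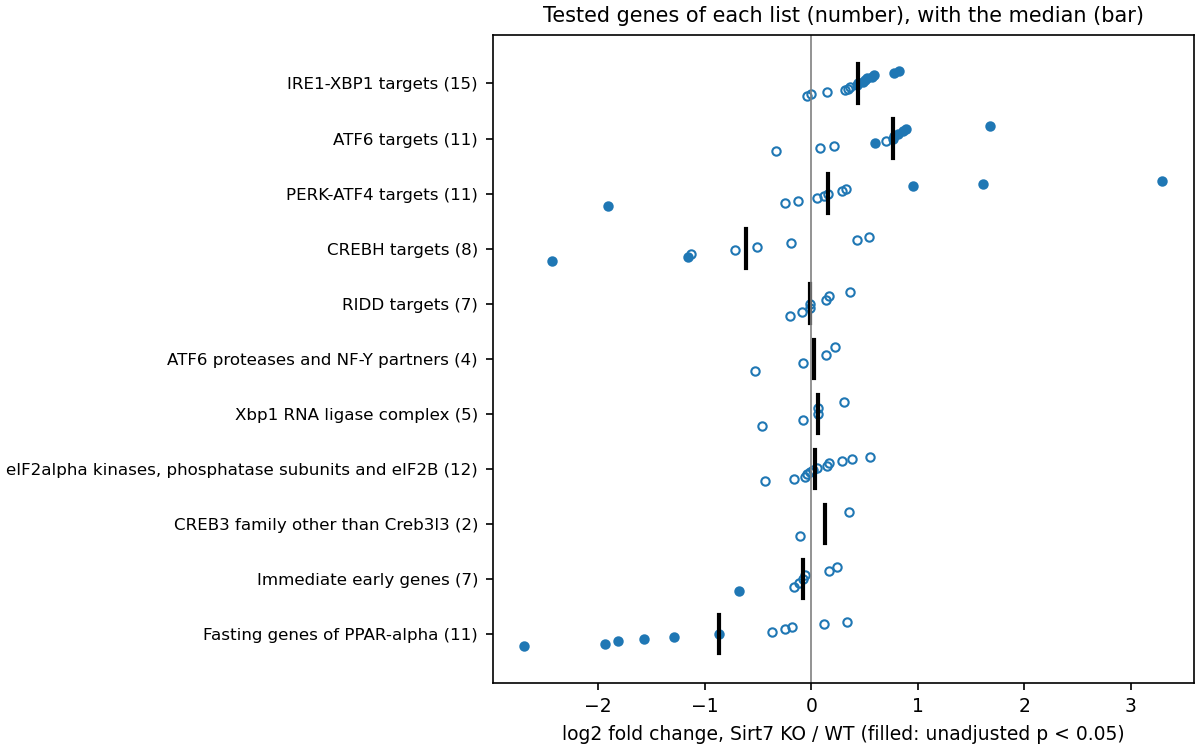
Log2 fold changes (*Sirt7* KO over WT, edgeR) of the tested genes of each list, 1 point per gene, filled at an unadjusted p under 0.05, with a bar at the median and the number of tested genes in parentheses (RIDD targets are the RNAs degraded by IRE1α). The medians lie at 0.77 for ATF6 targets, 0.44 for targets of IRE1 and XBP1, and -0.62 for CREBH targets. When 1 liver is left out, they are 0.58 to 0.86 for ATF6 targets and -0.98 to -0.28 for CREBH targets.

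The genes whose levels followed *Xbp1* and *Creb3l3* most closely over the 6 livers were found among 6679 genes with a mean of at least 10 CPM. For *Xbp1* they were *Itm2c*, *Plpp2* and *Syvn1*, with Pearson's r of 0.99, 0.98 and 0.98 and Spearman's rho of 1.0, 0.94 and 0.94 on the log2(CPM + 0.5) scale. *Syvn1*, which encodes the ubiquitin ligase HRD1 of ER-associated degradation, had 30.9, 31.4 and 31.7 CPM in WT and 48.6, 33.6 and 44.6 CPM in *Sirt7* KO mice, with KO mouse 2 the lowest KO liver as for *Xbp1*. For *Creb3l3* they were *Cpt1a*, *Fitm2* and *Cyp4a31*, with r of 0.99, 0.98 and 0.98 and rho of 1.0, 0.94 and 1.0. *Cpt1a*, which encodes the carnitine palmitoyltransferase that admits fatty acids to mitochondria, is on the fasting list above and had 217, 315 and 265 CPM in WT and 288, 151 and 179 CPM in KO mice. These values describe the best matches among many genes in 6 livers of both genotypes and of differing depth, and carry no test.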

How the data were processed

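RNA of 6 livers was made into libraries with SMART-Seq HT and Nextera XT, which do not mark strand, and sequenced as single-end reads. After trimming with Trim Galore 0.6.5, the authors ran Salmon 1.2.1 on the mouse transcriptome (GRCm38), and deposited, per mouse and transcript, an estimated count of reads and TPM, which is scaled to effective length. The estimated counts are not normalized, and 17.4% of the values above 0 are whole to within 0.0005.

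Estimated counts were summed by gene with GENCODE M21 and rounded. Of 140992 transcripts, 1201 without a gene there (0.303 to 0.492% of reads) were left out. A second identifier with the symbol *Ddit3* was kept apart. CPM are library-size-normalized reads after TMM scaling. The main test was edgeR 4.0.16 (R 4.3.3, quasi-likelihood, filterByExpr with a minimum count of 10), with Benjamini-Hochberg adjustment. Exact permutation tests were two-sided, on log2(CPM + 0.5) for genes and on the percent of the gene's reads for isoform shares. DESeq2 1.42.0, other scalings, filters, length offsets, a block for the replicate number and leaving out each liver were alternatives. The counts of list genes at an unadjusted p were recomputed in these fits as an addition after the data were seen. Scripts were tested on simulated data and figures drawn with Python 3.11.15.

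The genes named are the 9 genes, *Sirt7*, the usual readouts *Hspa5*, *Dnajb9* and *Atf4*, the highest and lowest gene of each list, and the 3 genes most like *Xbp1* and *Creb3l3*. Isoforms are named from a mean of 10 reads on, and markers where they were at 0. *Syvn1* and *Cpt1a* also stand on a list, and *Mars*, *Gm43292* and *Gm26616* are named for their overlap. The 9 genes and all lists were chosen with earlier results of these data known. A planned test of the share of spliced *Xbp1* could not be made, since no quantified transcript holds the joined sequence. Livers of the same genotype differed by more than sampling noise, and each counted as 1 sample. Depth covers counting error only, because the sources used here name no molecular identifiers.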

Additional observations from a re-analysis of the deposited data

How the results depend on the processing

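The number of genes called was 1 in edgeR with all livers. It was 257 with DESeq2, 240 with DESeq2 and length offsets, 633 without a filter on low counts, 925 at an unadjusted p with a fold over 1.5, and 2 each with length offsets in edgeR, with transcripts of the same version only and with total-count scaling. Leaving out 1 liver gave 0 to 252 genes: 252 without *Sirt7* KO mouse 1, 2 without WT mouse 1, and 0 without each of the other 4. The replicate block gave 41 genes. Deviations of livers with the same number correlated at 0.07, 0.08 and -0.04, and those of livers with different numbers at -0.10 to 0.05. The values 0.07 and 0.08 were thus the highest of all. The numbers were not taken to pair the mice, and whether they do was not tested further. The block called 0 of the 9 genes and 0 of their isoforms.

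None of the 9 genes was called in any of the 16 alternatives. The sign of *Ern1*, *Eif2ak3*, *Atf6*, *Xbp1*, *Creb3l3* and *Ppp1r15b* was kept in all 16, although the size moved when 1 liver was left out, to 0.15 to 0.69 for *Eif2ak3*, -0.44 to -0.08 for *Creb3l3* and -0.24 to -0.03 for *Ppp1r15b*. *Atf6b* turned to -0.048 with total-count scaling and had -0.0089 to 0.19 when 1 liver was left out (-0.0089 without WT mouse 2). *Ddit3* had -0.41 to 0.032 (0.032 without WT mouse 2). *Ppp1r15a* had 0.00047 with DESeq2 and length offsets, 0.0027 with the replicate block, and -0.14 to 0.17 when 1 liver was left out (0.02 without KO mouse 1, 0.0016 without KO mouse 3, 0.17 without WT mouse 1). The cause of these changes was not tested. The number of genes at an unadjusted p under 0.05 was 2 of the 9 with all livers, 0 with total-count scaling, 3 without KO mouse 1 (*Creb3l3* being the third), and 1 without KO mouse 2, KO mouse 3, WT mouse 2 or WT mouse 3. It was also 1 with length offsets in edgeR or in DESeq2 and with the replicate block.

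No isoform of the 9 genes was called (0 isoforms) in the 10 alternatives run on transcripts, which were DESeq2, RLE scaling, no filter on low counts, the replicate block and leaving out each liver. The alternatives for the share of spliced *Xbp1* were not run, as no quantified transcript holds the joined sequence. *Eif2ak3* had 35 to 90 reads per liver, and whether depth or the spread between mice sets its wide interval was not tested.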
